A study of Homo sapiens with 12 samples.

Results

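The cadherins and catenins are the proteins that hold neighbouring epithelial and mesenchymal cells together at the adherens junction. The 9 genes described here are 6 cadherins (CDH1, CDH2, CDH3, CDH4, CDH11 and CDH13) and 3 catenins (CTNNA1, CTNNB1 and CTNND1), taken by symbol from a count table of 51838 genes. 8 of the 9 had enough reads for the test across genes, and CDH13 did not. Messenger RNA was measured in HCC70 and MDA-MB-231, both established human breast cancer cell lines that the labels class as basal-like. Each line received 100 nM dexamethasone, a synthetic glucocorticoid that activates the glucocorticoid receptor, or the same volume of ethanol as the vehicle. Cells were collected after 4 h. There were 3 libraries for each line and treatment, 12 in all. The culture medium differed too (RPMI for HCC70, DMEM for MDA-MB-231), and its share in a difference between the lines cannot be told apart from that of the line. The labels do not say whether the replicates were separate cultures, so p-values measure only the spread between these libraries, which may be technical.

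A classical cadherin spans the plasma membrane and binds cadherins on the adjacent cell. Its cytoplasmic tail binds beta-catenin (CTNNB1), which recruits alpha-catenin (CTNNA1) and through it actin, while p120-catenin (CTNND1) binds nearer the membrane and keeps the cadherin from being taken up and degraded. Beta-catenin released from the junction can also enter the nucleus and act with TCF and LEF transcription factors. Epithelial breast cells are known for E-cadherin (CDH1), basal and myoepithelial breast cells for P-cadherin (CDH3), and mesenchymal-like breast cancer cells for a loss of these and a gain of other cadherins.

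Total counts per library ran from 106345287 to 123218973, and levels are given in CPM, counts scaled to a common library size with TMM factors. A count of 0 over the 3 libraries of a group was taken to allow up to 3 counts, or 0.00782 to 0.00898 CPM, counting error only. FKBP5 and TSC22D3, both known glucocorticoid-induced genes, rose in both lines under dexamethasone, FKBP5 by 6.20-fold in HCC70 and 19.9-fold in MDA-MB-231. The 7 basal markers summed to 3440 to 3731 CPM in HCC70 vehicle and to 441 to 675 CPM in MDA-MB-231 vehicle. In the latter, 4 of the 7 had a mean of at least 1 CPM. KRT5, 1 of the 7, stood at 2595 ± 126 CPM in HCC70 vehicle and at 0.804 ± 0.441 CPM in MDA-MB-231 vehicle (SD, n = 3). This marker of the labelled subtype was thus under 1 CPM in MDA-MB-231 vehicle and not among those 4. Summed levels of 7 mesenchymal markers, which include CDH2, ran from 386 to 423 CPM in HCC70 vehicle and from 4554 to 4962 CPM in MDA-MB-231 vehicle. In MDA-MB-231, vehicle 1 and dexamethasone 2 stood apart from the other libraries of their groups, and results that rest on them are given with and without them. In bulk RNA, fewer cells with a transcript and less transcript per cell cannot be told apart.

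Promoter sequence was at hand for 4 of the 9 members (CDH2, CDH4, CTNNA1 and CTNNB1), from RefSeq on GRCh38.p14. 3 windows of 250 bases before a transcription start are shown because they belong to the beta-catenin gene, transcribed in both lines, and to a pair of cadherins transcribed almost entirely in MDA-MB-231. Capitals mark CpG dinucleotides, and each sequence reads 5′ to 3′ on the strand of its gene. The windows are chr3:41199255-41199504 on the plus strand for CTNNB1, chr18:28177131-28177380 on the minus strand for CDH2 and chr20:61499171-61499420 on the plus strand for CDH4.
CTNNB1: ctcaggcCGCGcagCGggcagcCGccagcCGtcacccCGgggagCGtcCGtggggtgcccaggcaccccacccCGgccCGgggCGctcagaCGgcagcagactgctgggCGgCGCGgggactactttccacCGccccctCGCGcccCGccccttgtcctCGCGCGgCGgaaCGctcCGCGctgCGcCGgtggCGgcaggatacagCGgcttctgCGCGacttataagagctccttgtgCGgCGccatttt
CDH2: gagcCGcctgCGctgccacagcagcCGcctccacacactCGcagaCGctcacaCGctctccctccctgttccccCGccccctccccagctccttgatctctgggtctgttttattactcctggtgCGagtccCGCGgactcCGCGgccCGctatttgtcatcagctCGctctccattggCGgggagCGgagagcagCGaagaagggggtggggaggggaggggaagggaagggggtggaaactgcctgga
CDH4: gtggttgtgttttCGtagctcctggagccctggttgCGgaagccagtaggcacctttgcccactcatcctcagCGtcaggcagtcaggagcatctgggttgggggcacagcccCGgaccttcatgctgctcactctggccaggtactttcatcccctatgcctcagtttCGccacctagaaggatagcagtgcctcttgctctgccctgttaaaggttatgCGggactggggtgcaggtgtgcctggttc
The CTNNB1 window holds 34 CpG and is 74.4% G or C, the CDH2 window 17 CpG and 66% G or C, and the CDH4 window 6 CpG and 58.4% G or C. The median over 35116 RefSeq promoter windows of 250 bases was 11 CpG, so these CTNNB1 and CDH2 windows lay above it and this CDH4 window below it. The table lists a second start for both cadherins, and there the order turns: 4 CpG for CDH2 at chr18:28036642-28036891 and 12 for CDH4 at chr20:61599511-61599760. Which start was used in these cells was not measured. The E-box CACCTG, searched on both strands, occurred in 17.5% of all windows. It was found 16 bases before the CDH4 start, as CAGGTG on the gene's strand, and not in the other 2 windows shown. The glucocorticoid receptor half-site AGAACA, searched on both strands, occurred in 12.4% of all windows and in 0 of the 9 windows of these 4 members. The full palindrome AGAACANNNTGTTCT, which contains that half-site, occurred in 0.00285% of all windows and in 0 of the same 9. A match is a run of letters and not a shown binding site, and a lack of matches concerns these windows only.

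The lines carried different cadherins. In vehicle, HCC70 had E-cadherin and P-cadherin mRNA at 492 CPM or more in every library, and MDA-MB-231 had R-cadherin (CDH4) and OB-cadherin (CDH11) instead. All 8 members tested passed in the comparison of the lines in vehicle (edgeR quasi-likelihood test, Benjamini-Hochberg adjusted p under 0.05), where 79.2% of all genes tested passed, so the count itself does not set the family apart. 3 were higher in HCC70 (CDH1, CDH3 and CTNND1; 39.2% of all genes), and 5 were higher in MDA-MB-231 (CDH2, CDH4, CDH11, CTNNA1 and CTNNB1; 40% of all genes). CDH2 and CDH11 met the low-count filter only through MDA-MB-231 and thus had to differ. Their calls within the 8 and the 5 were therefore fixed in advance, and their values are given without a test.

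E-cadherin, the epithelial cadherin, stood at 540, 518 and 492 CPM in the HCC70 vehicle libraries. CDH1 stood at 2.05, 2.80 and 1.99 CPM in MDA-MB-231 vehicle. Every HCC70 library lay far above every MDA-MB-231 library, and the fold was 226 (log2 fold change 7.82 ± 0.20, SE; adjusted p = 2.86e-12). P-cadherin, typical of basal breast epithelium, stood at 631, 668 and 647 CPM in HCC70 vehicle. CDH3 stood at 0.452, 0.484 and 0.307 CPM in MDA-MB-231 vehicle. The groups did not overlap and the fold was 1554 (log2 10.60 ± 0.20, adjusted p = 6.69e-14). Antisense genes share 5.62% of the CDH1 and 11.1% of the CDH3 exon bases, and the libraries keep no strand, so reads from these stretches cannot be assigned to either strand.

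OB-cadherin, a type II cadherin of mesenchymal cells, had 0 counts in all 6 HCC70 libraries. CDH11 stood at 121, 133 and 124 CPM in the MDA-MB-231 vehicle libraries. Against the limit of 3 counts over the HCC70 vehicle group, it was 14594-fold higher in MDA-MB-231. The lower end of the exact 95% interval of the ratio was 11868, for counting error only. R-cadherin, a classical cadherin of retina and brain, had 11, 17 and 16 counts in HCC70 vehicle, which is 0.0923, 0.153 and 0.137 CPM. CDH4 stood at 93.8, 65.3 and 54 CPM in MDA-MB-231 vehicle. It was 555-fold higher there (log2 -9.12 ± 0.34 for HCC70 over MDA-MB-231, adjusted p = 8.83e-10), and the 3 MDA-MB-231 libraries were widely spread.

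N-cadherin (CDH2), the cadherin most often named in epithelial to mesenchymal transition, was scarce in both lines. CDH2 had 0 counts in the 3 HCC70 vehicle libraries and stood at 1.96, 2.55 and 2.34 CPM in MDA-MB-231 vehicle. Against the limit of 3 counts it was 264-fold higher in MDA-MB-231, at a low level in every library of that line. The lower end of the exact 95% interval of the CDH2 ratio was 214, for counting error only. T-cadherin (CDH13), which lacks the cytoplasmic tail and is held in the membrane by a lipid anchor, had 2, 0 and 0 counts in HCC70 vehicle and 1, 14 and 0 in MDA-MB-231 vehicle. The ratio of the summed CDH13 counts was 7.19 in favour of MDA-MB-231, with an exact interval of 1.67 to 64.8 at 95% for counting error only. The groups overlapped, 14 of the 15 MDA-MB-231 counts came from vehicle 2, and CDH13 was not tested.

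**Figure D1:**
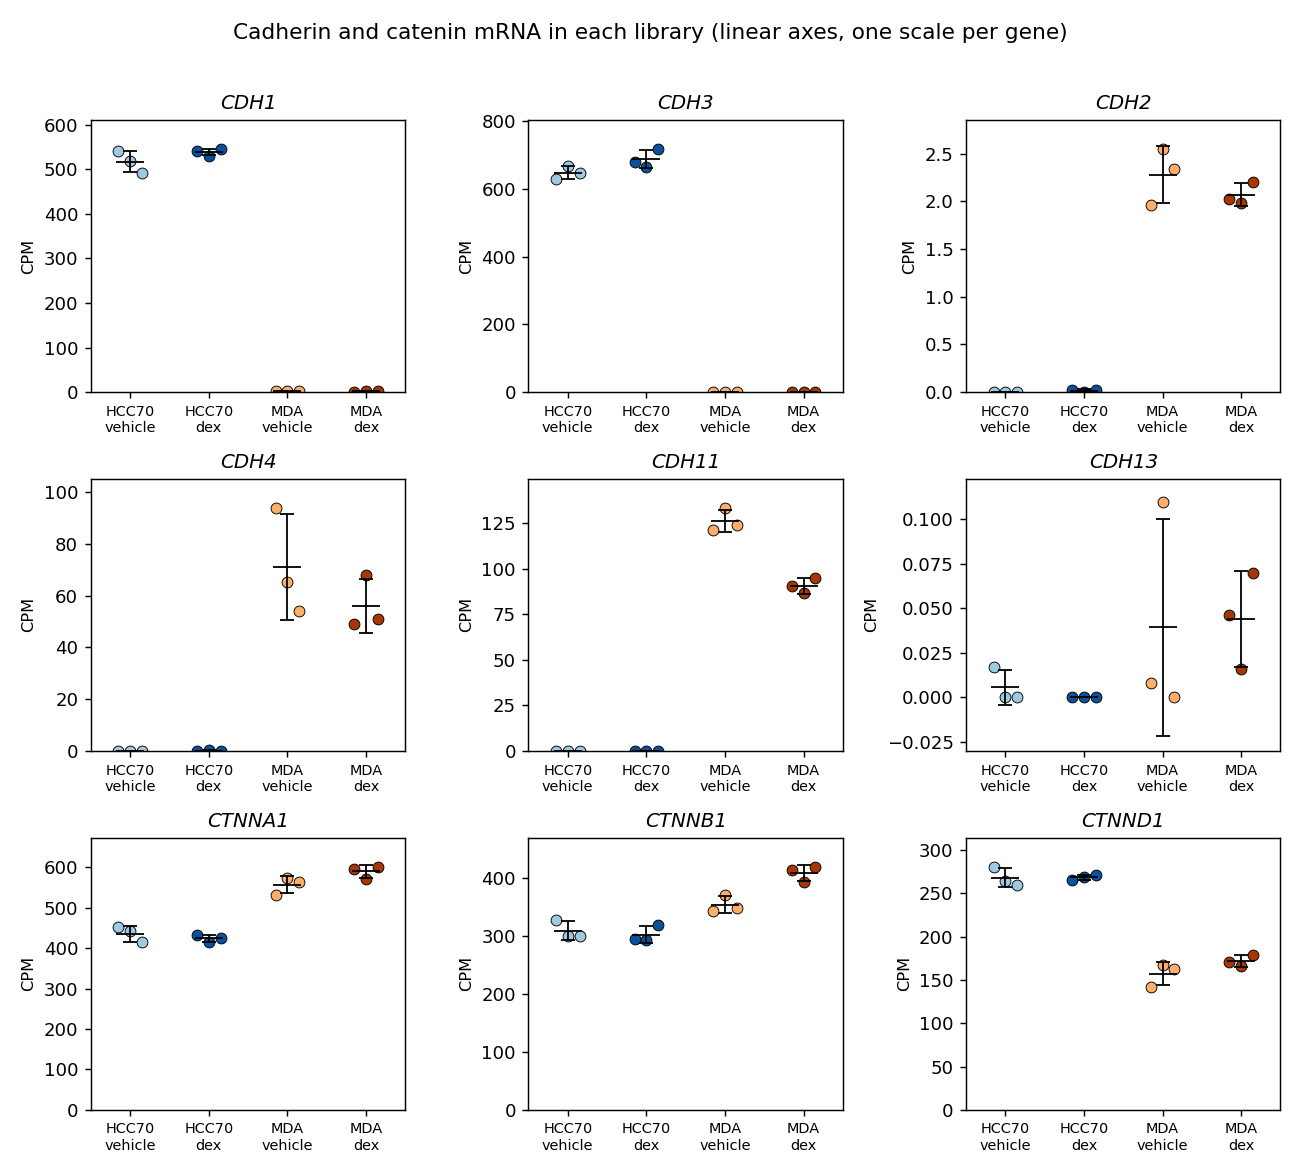
Each point is 1 library's level in CPM (linear axis, a scale of its own for each gene), with the mean and SD of each group of 3 as a bar, for HCC70 and MDA-MB-231 with vehicle or dexamethasone. CDH1 and CDH3 are high only in the HCC70 libraries, CDH4 and CDH11 only in the MDA-MB-231 libraries, and the 3 catenins are high in all 12. CDH13 stays near 0, and its SD bars reach below 0 because counts are so few.

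The catenins were present in both lines, with folds of 1.14 to 1.71 between them in vehicle. Alpha-catenin, the link to actin, stood at 452, 442 and 414 CPM in HCC70 vehicle and at 533, 573 and 564 CPM in MDA-MB-231 vehicle. CTNNA1 did not overlap between the lines and was 1.28-fold higher in MDA-MB-231 (log2 -0.35 ± 0.056 for HCC70 over MDA-MB-231, adjusted p = 4.55e-05). LRRTM2 lies on the opposite strand and shares 5.04% of the CTNNA1 exon bases. Beta-catenin stood at 328, 299.7 and 299 CPM in HCC70 vehicle and at 342, 370 and 348 CPM in MDA-MB-231 vehicle. CTNNB1 was 1.14-fold higher in MDA-MB-231 without overlap (log2 -0.20 ± 0.062, adjusted p = 0.0101). This small difference ended when each library's trend with GC content and length was removed (log2 -0.01, adjusted p = 0.857). p120-catenin stood at 281, 264 and 260.0 CPM in HCC70 vehicle and at 142, 167 and 163 CPM in MDA-MB-231 vehicle. CTNND1 went the other way from the other two catenins, 1.71-fold higher in HCC70 (log2 0.77 ± 0.067, adjusted p = 8.03e-08).

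A readthrough gene, TMX2-CTNND1, shares 3.65% of the CTNND1 exon bases and has a row of its own in the table. It was lower in HCC70, at 6.53 ± 0.187 CPM against 11.5 ± 0.328 CPM in MDA-MB-231 vehicle (SD, n = 3; log2 -0.81 ± 0.066, adjusted p = 3.50e-08). Its direction was thus opposite to that of CTNND1. How reads of the shared exons were split between these rows is not given in the sources used here.

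Levels of different genes can be set side by side only per length, here as CPM per kb of exon with exon lengths from a GRCh38 annotation, which is not the build of the counts. In HCC70 vehicle P-cadherin led at 104 ± 3.03 CPM per kb, followed by E-cadherin at 83.6 ± 3.84 (SD, n = 3). The 3 CDH3 libraries, 101 to 107 CPM per kb, lay above the 3 CDH1 libraries, 79.7 to 87.4. Alpha-catenin at 49.4 ± 2.21, p120-catenin at 30.5 ± 1.25 and beta-catenin at 25.9 ± 1.37 CPM per kb came next, and CDH4 was at 0.0174 ± 0.00429. In MDA-MB-231 vehicle alpha-catenin led at 63.0 ± 2.40 CPM per kb, before beta-catenin at 29.6 ± 1.25 and p120-catenin at 17.9 ± 1.55. CDH4 at 9.66 ± 2.79 and CDH11 at 9.42 ± 0.468 CPM per kb followed and did not differ beyond their spread. CDH2 at 0.461 ± 0.0603 and CDH1 at 0.369 ± 0.0728 CPM per kb did not differ beyond their spread either, and CDH3 was at 0.0664 ± 0.0152.

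Summed per length, the 6 cadherins reached 188 ± 3.83 CPM per kb in HCC70 vehicle and 20.0 ± 2.59 in MDA-MB-231 vehicle (SD, n = 3). The 3 catenins summed to 106 ± 4.53 CPM per kb in HCC70 and 111 ± 5.0 in MDA-MB-231. The cadherin sums did not overlap between the lines (183 to 191 against 17.4 to 22.6), whereas the catenin sums did (102 to 111 against 105 to 115). The sum of the 6 cadherins was 1.78 ± 0.0611 times that of the 3 catenins in HCC70 and 0.181 ± 0.0303 times in MDA-MB-231. Within the catenins, p120-catenin mRNA was 1.18 ± 0.0163 times beta-catenin mRNA in HCC70 and 0.603 ± 0.0378 times in MDA-MB-231, without overlap. No test was run on these sums and ratios, and they cover only the cadherins and catenins named here. The desmosomal and other atypical cadherins are not in them. Plakoglobin (JUP), a catenin relative, is not in them either. JUP stood at 1545 ± 69.6 CPM in HCC70 vehicle and 130 ± 30.3 CPM in MDA-MB-231 vehicle, so these sums and ratios do not describe all catenin mRNA.

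**Figure D2:**
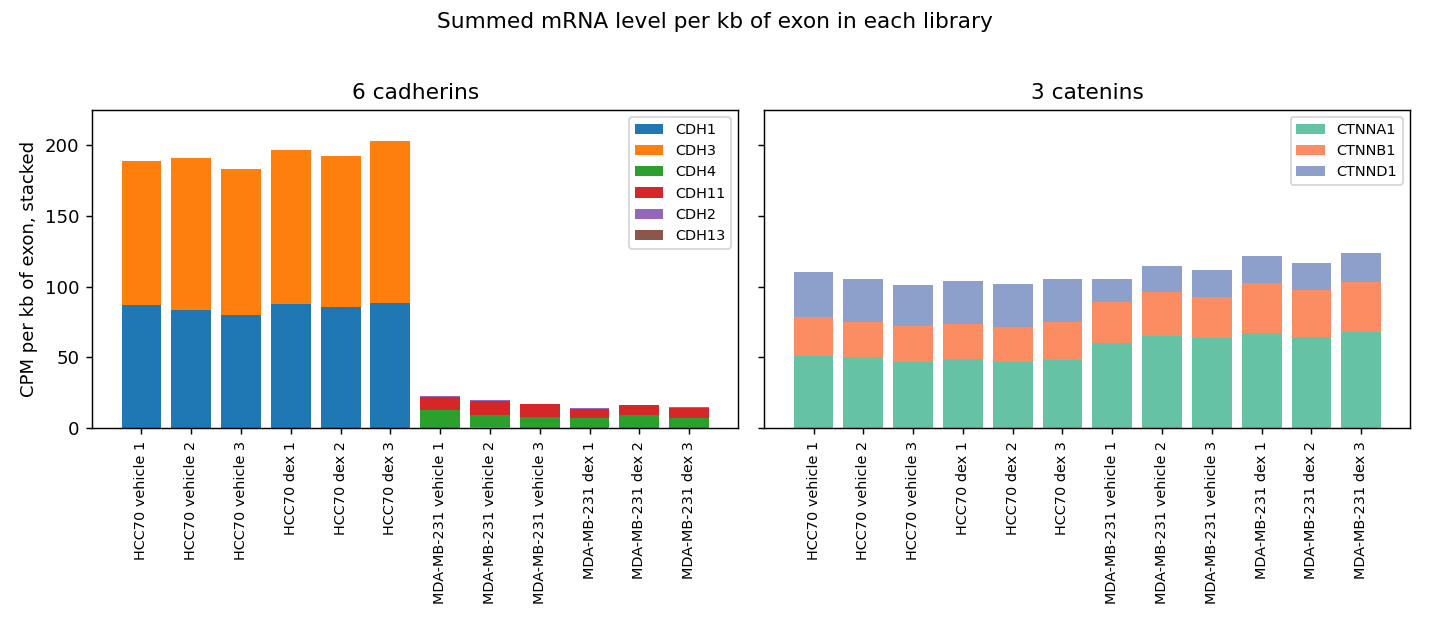
Bars stack the level per kb of exon (CPM per kb, linear axis from 0) of the 6 cadherins on the left and the 3 catenins on the right, 1 bar for each of the 12 libraries. The cadherin bars reach 183 to 203 in the HCC70 libraries and 14.1 to 22.6 in the MDA-MB-231 libraries, while the catenin bars lie between 102 and 124 in all 12.

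In HCC70, dexamethasone moved 0 of the 8 tested members past the threshold, where 3.96% of all genes tested passed (edgeR; 2.55% higher, 1.4% lower). At an unadjusted p under 0.05, met by 5154 of all 28141 genes tested, there was 1 member, CDH2 (edgeR adjusted p = 0.154). It had 0 counts in all vehicle libraries and 3, 0 and 2 counts with dexamethasone. The DESeq2 Wald test and limma voom also called 0 members. E-cadherin stood at 541, 530 and 545 CPM with dexamethasone, overlapping the vehicle libraries (log2 fold change 0.06 ± 0.14, 95% interval -0.25 to 0.38, adjusted p = 0.864). P-cadherin stood at 680, 666 and 718 CPM, also overlapping vehicle (log2 0.08 ± 0.13, interval -0.19 to 0.36, adjusted p = 0.762). These intervals leave room for rises of up to 0.38 and 0.36 on the log2 scale.

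The summed epithelial markers were higher with dexamethasone in HCC70, while E-cadherin did not pass. The summed level of the 8 markers ran from 6645 to 6811 CPM with vehicle and from 8679 to 9595 CPM with dexamethasone. Of the 8, 3 rose (KRT19, KRT7 and CLDN4) and 0 fell, beside 2.55% of all genes higher and 1.4% lower. Gene levels were centred on each gene's mean over all libraries of the line, so the trend with GC content is relative between libraries. The rank correlation of these deviations with GC content was negative in all 3 HCC70 vehicle libraries (-0.568 to -0.134). It was positive in all 3 dexamethasone libraries (0.325 to 0.471). With each library's GC and length trend removed, CDH1 was at log2 0.08 (adjusted p = 0.762) and CDH3 at 0.03 (adjusted p = 0.869).

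The intervals of the catenins in HCC70 were narrower. Alpha-catenin stood at 432, 415 and 426 CPM with dexamethasone (log2 -0.04 ± 0.056, interval -0.16 to 0.08, adjusted p = 0.748). Beta-catenin stood at 294, 293 and 319 CPM (log2 -0.03 ± 0.062, interval -0.17 to 0.10, adjusted p = 0.818). p120-catenin stood at 266, 269 and 271 CPM (log2 0.00 ± 0.067, interval -0.14 to 0.15, adjusted p = 1). All 3 overlapped their vehicle libraries. TMX2-CTNND1 stood at 7.10 ± 0.202 CPM, beside 6.53 CPM in vehicle, and did not pass (adjusted p = 0.348). CDH4 had 8, 22 and 16 counts, CDH11 and CDH13 had 0, and a change in these was not detectable at this depth.

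In MDA-MB-231, dexamethasone changed 2 of the 8 tested members, CDH11 downwards and CTNNB1 upwards, where 14.6% of all genes tested passed (7.96% lower, 6.65% higher). The median log2 fold change of the 8 was -0.17, beside -0.01 over all genes tested. OB-cadherin stood at 90.4, 86.3 and 94.9 CPM with dexamethasone, below all 3 vehicle libraries at 121, 133 and 124 CPM. CDH11 fell 1.39-fold (log2 fold change -0.48 ± 0.065, SE; 95% interval -0.62 to -0.33; adjusted p = 0.000802). The fall passed under all 25 alternative settings, with log2 values from -0.53 to -0.42, and was -0.45 without MDA-MB-231 vehicle 1 and dexamethasone 2.

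The summed fibroblast markers moved in the same direction as CDH11. Their summed level ran from 53.8 to 84.3 CPM in MDA-MB-231 vehicle and from 35.3 to 46.1 CPM with dexamethasone. Of the 5, 4 were tested and 2, COL1A1 and PDGFRB, fell, beside 7.96% of all genes lower. LUM, a defining fibroblast marker, was at 0.207 ± 0.150 CPM in vehicle and 0.235 ± 0.0137 CPM with dexamethasone (SD, n = 3). The summed mesenchymal markers overlapped between the treatments, at 4554 to 4962 and 4618 to 4789 CPM. Of the 8 epithelial markers, 2 rose and 4 fell in MDA-MB-231, beside 6.65% of all genes higher and 7.96% lower. The part of these markers in the CDH11 result was not tested.

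Beta-catenin stood at 414, 393 and 419 CPM with dexamethasone, above all 3 vehicle libraries at 342, 370 and 348 CPM. CTNNB1 rose 1.16-fold (log2 0.21 ± 0.062, interval 0.08 to 0.34, adjusted p = 0.0377). The direction was the same under all 25 alternatives, but the call was kept under only 15, since adjusted p ran from 0.0139 to 0.146. It was lost without MDA-MB-231 vehicle 1 (adjusted p = 0.0830), vehicle 3 (0.0614), dexamethasone 1 (0.118) or dexamethasone 3 (0.146), and without HCC70 vehicle 2 (0.0518) or HCC70 dexamethasone 2 (0.0536). Without the libraries that stood apart, MDA-MB-231 vehicle 1 and dexamethasone 2, log2 was 0.23 and adjusted p = 0.0197.

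The other catenins did not pass in MDA-MB-231. Alpha-catenin stood at 597, 572 and 601 CPM with dexamethasone, overlapping vehicle by the lowest of these (log2 0.08 ± 0.056, interval -0.04 to 0.20, adjusted p = 0.339). p120-catenin stood at 170.5, 166 and 179 CPM (log2 0.13 ± 0.067, interval -0.01 to 0.27, adjusted p = 0.210), again overlapping vehicle. TMX2-CTNND1 stood at 11.3 CPM with dexamethasone, beside 11.5 CPM in vehicle (adjusted p = 0.827).

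R-cadherin, the other abundant cadherin of MDA-MB-231, stood at 49.2, 68.1 and 50.8 CPM with dexamethasone and overlapped its vehicle libraries (log2 -0.34 ± 0.20, interval -0.79 to 0.11, adjusted p = 0.288). Its highest vehicle and highest dexamethasone levels were in vehicle 1 and dexamethasone 2, the libraries that stood apart. Gene levels were also centred on each gene's mean over the 6 MDA-MB-231 libraries, and the deviations were rank-correlated with GC content. The libraries ranked by CDH4 in the same order as by this correlation (0.645 in vehicle 1, 0.239 in dexamethasone 2, -0.498 in dexamethasone 1). The longest CDH4 transcript is 59% G or C, the highest of the members, and that of CDH11 is 42.9%, the lowest. With the GC and length trend of each library removed, the CDH4 estimate was -0.12 (adjusted p = 0.549), and without vehicle 1 it was -0.09 (adjusted p = 0.786). The estimate was -0.48 without dexamethasone 2 (adjusted p = 0.113), -0.24 without both of these libraries (adjusted p = 0.133) and -0.51 without vehicle 3 (adjusted p = 0.0858). CDH4 thus did not pass in any of these fits, and the part of GC content in its estimates was not tested.

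The scarce cadherins of MDA-MB-231 did not pass. E-cadherin stood at 1.3, 2.01 and 2.16 CPM with dexamethasone (log2 -0.32 ± 0.17, interval -0.70 to 0.05, adjusted p = 0.225). N-cadherin stood at 2.02, 1.99 and 2.21 CPM (log2 -0.14 ± 0.17, interval -0.51 to 0.23, adjusted p = 0.637). P-cadherin stood at 0.306, 0.517 and 0.263 CPM (log2 -0.21 ± 0.22, interval -0.69 to 0.27, adjusted p = 0.580). All 3 overlapped their vehicle libraries. Without vehicle 1 and dexamethasone 2 the estimates were -0.46 for CDH1 (adjusted p = 0.159) and -0.47 for CDH3 (adjusted p = 0.138). With 1 MDA-MB-231 library left out at a time, CDH1 ran from -0.46 (without dexamethasone 3) to -0.15 (without vehicle 2) and -0.13 (without dexamethasone 1). CDH3 ran from -0.52 (without dexamethasone 2, adjusted p = 0.0528) to -0.08 (without vehicle 2) and -0.02 (without dexamethasone 3). Neither passed in any of these fits, and single libraries set much of the size of both estimates. CDH13 had 6, 2 and 9 counts with dexamethasone and was not tested.

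**Figure D3:**
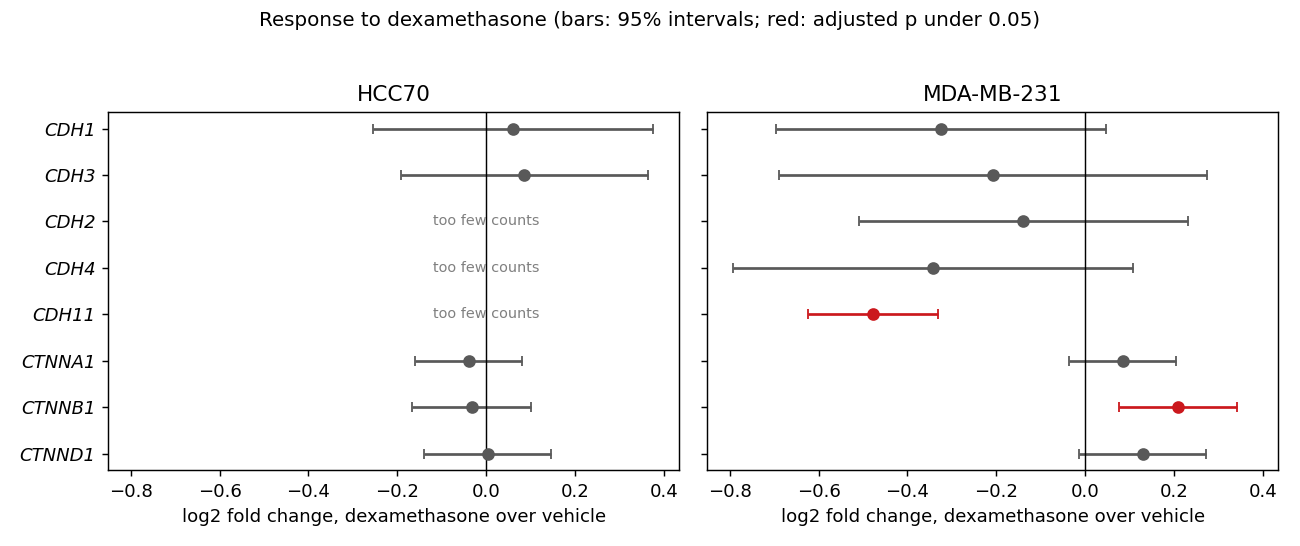
Points give the log2 fold change of dexamethasone over vehicle for each tested member in HCC70 (left) and MDA-MB-231 (right), with 95% intervals as bars and members past the threshold in red. All HCC70 intervals shown cross 0, with CDH2, CDH4 and CDH11 left out for too few counts. In MDA-MB-231 the CDH11 interval lies below 0 and the CTNNB1 interval above it.

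The summed cadherin level per kb in MDA-MB-231 was 20.0 ± 2.59 with vehicle and 15.2 ± 1.23 with dexamethasone (17.4 to 22.6 against 14.1 to 16.5; SD, n = 3). The summed catenin level was 111 ± 5.0 with vehicle and 121 ± 3.61 with dexamethasone, again without overlap (105 to 115 against 117 to 124). In HCC70 the cadherin sums were 188 ± 3.83 CPM per kb with vehicle and 198 ± 5.36 with dexamethasone. They were higher with dexamethasone, also without overlap (183 to 191 against 193 to 203). The HCC70 catenin sums were 106 ± 4.53 and 104 ± 1.86 CPM per kb and overlapped (102 to 111 against 102 to 106). CDH4 and CDH11 made up nearly all of the MDA-MB-231 cadherin sum under both treatments, CDH4 at 7.62 ± 1.42 and CDH11 at 6.77 ± 0.322 CPM per kb with dexamethasone. These sums carry no test, and CDH4, whose own change did not pass, enters the MDA-MB-231 cadherin sums with a large weight. The catenin sums leave out JUP.

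No tested member had a response that differed between the lines past the threshold (edgeR), where 12.1% of all genes tested did (6.96% more positive and 5.09% more negative in HCC70). At an unadjusted p under 0.05, met by 8541 of all 28141 genes tested, there were 2 members, CDH2 and CTNNB1. The CDH2 value rests on its 5 HCC70 counts (adjusted p = 0.0732). For CTNNB1 the response in HCC70 minus that in MDA-MB-231 was -0.24 ± 0.088 (log2, SE; 95% interval -0.43 to -0.05; adjusted p = 0.0833). The DESeq2 Wald test called CTNNB1, and so did 4 of the other alternatives, while limma voom called 0 members. For the other members with counts in both lines, the difference was 0.38 for CDH1 (adjusted p = 0.274), 0.29 for CDH3 (0.483), -0.12 for CTNNA1 (0.320), -0.13 for CTNND1 (0.399) and 0.46 for CDH4 (0.711). For CDH11 the difference cannot be measured, because HCC70 had no counts under either treatment.

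**Figure D4:**
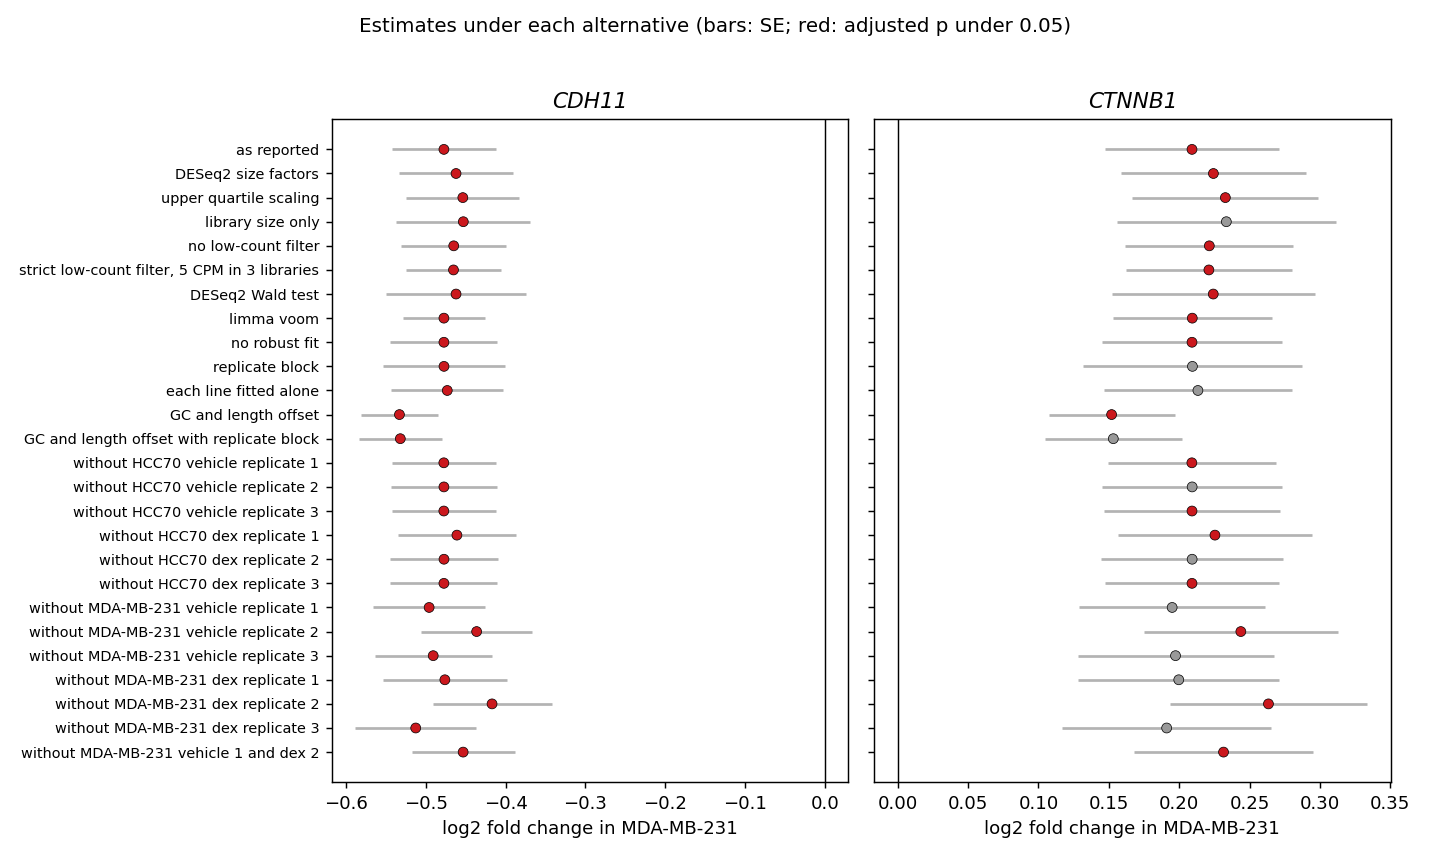
Points give the log2 fold change of dexamethasone over vehicle in MDA-MB-231 for CDH11 (left) and CTNNB1 (right), as reported and under each of 25 alternatives, with the standard error as a bar and an adjusted p under 0.05 in red. CDH11 is red in every row, between -0.53 and -0.42. CTNNB1 lies between 0.15 and 0.26 in every row and is red in 15 of the 25 alternatives.

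For each member that passed in a dexamethasone comparison, the 2 genes nearest in pattern over the 12 libraries were taken from 12903 candidates, by the Euclidean distance of their centred log2 CPM. For CDH11 these were DLC1 at a distance of 0.364, and ECI2, an enzyme of fatty acid oxidation, at 1.29. For CTNNB1 they were SLC35F5 at 0.143 and CAP1, an actin-binding protein, at 0.153. Like CDH11, DLC1 had 0 counts in HCC70, and its log2 fold change with dexamethasone in MDA-MB-231 was -0.36. That of ECI2 was 0.18, opposite in sign to CDH11. For SLC35F5 and CAP1 it was 0.14 and 0.23. The distances hold the contrast between the lines as well as the response to dexamethasone.

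The partners and regulators of the members were described with 7 lists, chosen with earlier results of these data known. Their counts with dexamethasone stand beside 3.96% of all genes tested in HCC70 (2.55% higher, 1.4% lower) and 14.6% in MDA-MB-231 (6.65% higher, 7.96% lower). Listed genes with almost no counts in either line met the low-count filter only through the other line and had to differ. The list counts for the lines in vehicle thus hold calls that were fixed in advance. Of the catenin relatives, 7 of 9 were tested. Plakoglobin (JUP), which can replace beta-catenin at the junction and also serves desmosomes, stood at 1545 ± 69.6 CPM in HCC70 vehicle and 130 ± 30.3 in MDA-MB-231 vehicle (SD, n = 3; 11.9-fold, adjusted p = 1.31e-08). In the comparison of the lines in vehicle, 4 of the 7 were higher and 2 lower in HCC70, beside 39.2% of all genes higher and 40% lower. CTNNAL1 (alpha-catulin, an alpha-catenin relative) was 16.8-fold higher in MDA-MB-231. CTNND2 (delta-catenin) was at 2.39 ± 0.215 CPM in HCC70 and had 0 counts in MDA-MB-231 vehicle, so its call within the 4 was fixed in advance. In HCC70, dexamethasone changed 0 of the 7.

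In MDA-MB-231, dexamethasone moved 2 catenin relatives up and 2 down, beside 14.6% of all genes. CTNNBL1, a splicing factor that resembles the catenins, rose from 53.0 ± 1.81 to 67.7 ± 2.69 CPM (log2 0.35 ± 0.051, adjusted p = 0.000303). CTNNBIP1, an inhibitor of beta-catenin binding to TCF, rose from 39.4 to 47.4 CPM (adjusted p = 0.0121) and lost the call under 3 of 25 alternatives, among them without MDA-MB-231 dexamethasone 3 (0.0588). JUP fell from 130 to 81.3 CPM (log2 -0.68 ± 0.18, adjusted p = 0.0288) but lost the call under 7 of 25, among them without MDA-MB-231 vehicle 1, vehicle 2, dexamethasone 1 or dexamethasone 3 (adjusted p from 0.0681 to 0.101). With each library's GC and length trend removed, the JUP fall was smaller but passed (log2 -0.40, adjusted p = 0.000861), and without vehicle 1 and dexamethasone 2 it was -0.68 (adjusted p = 0.000752). ARVCF, a p120 relative, fell from 3.5 to 2.09 CPM (adjusted p = 0.0423) and lost the call under 13 of 25, also without any of 10 libraries in turn (0.0522 to 0.157). With the GC and length trend removed it was at log2 -0.31, from -0.74 as reported (adjusted p = 0.0114).

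Nectins, a further class of junctional adhesion molecules, and the linkers from the junction to actin formed a list of 19, all tested. In MDA-MB-231, 4 rose and 4 fell with dexamethasone, beside 6.65% of all genes higher and 7.96% lower. Vinculin (VCL), which binds alpha-catenin under tension, rose from 393 ± 21.3 to 674 ± 20.5 CPM (log2 0.78 ± 0.062, 1.71-fold, adjusted p = 7.74e-07). PLEKHA7, which binds p120-catenin at the junction, rose from 121 to 217 CPM (log2 0.84 ± 0.071, 1.79-fold, adjusted p = 1.50e-06). Nectin-1 (PVRL1) fell from 47.2 to 29.6 CPM (log2 -0.68, adjusted p = 0.000635; -0.43 with the GC and length trend removed, adjusted p = 5.26e-05). The actin-associated SORBS2 and SHROOM3 were the other rises. JUB, LIMA1 and PVRL4 were the other falls, and LIMA1 and SHROOM3 were named after their values were seen. PVRL4 met the low-count filter only through HCC70, and its MDA-MB-231 call rests on 6, 2 and 0 counts with vehicle against 0 in all 3 dexamethasone libraries. The PVRL4 call ended without any of 11 libraries (0.0574 to 0.215) and the JUB call without MDA-MB-231 vehicle 1, vehicle 2, dexamethasone 1 or dexamethasone 3 (0.0590 to 0.122). In HCC70, 2 of the 19 rose, LMO7 and SHROOM3, and 0 fell, beside 2.55% of all genes higher and 1.4% lower. The LMO7 call ended without HCC70 dexamethasone 1 (0.0507) and the SHROOM3 call without any of 5 HCC70 libraries, all but vehicle 3 (0.0527 to 0.0949). The response of VCL differed between the lines (log2 difference -0.83, adjusted p = 3.22e-05), as did that of PLEKHA7 (-0.67, adjusted p = 0.000730).

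In the vehicle comparison all 19 genes of that list passed, 8 higher and 11 lower in HCC70, beside 79.2% of all genes. Nectin-4 (PVRL4) stood at 105 ± 4.98 CPM in HCC70 and 0.0219 ± 0.0257 in MDA-MB-231 (SD, n = 3). Since PVRL4 met the low-count filter only through HCC70, its call within the 19 and the 8 was fixed in advance. Nectin-3 (PVRL3) was the reverse, at 0.113 ± 0.0474 CPM in HCC70 and 37.3 ± 3.21 in MDA-MB-231.

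The beta-catenin destruction complex, which marks cytoplasmic beta-catenin for degradation, and the TCF factors made up a list of 25, of which 24 were tested. In HCC70, dexamethasone changed 0 of the 24. In MDA-MB-231 it raised 2 and lowered 4, beside the 6.65% and 7.96% of all genes. AXIN2, a scaffold of the complex and a known target of beta-catenin and TCF, rose from 3.10 ± 0.166 to 5.65 ± 0.549 CPM (log2 0.87 ± 0.10, adjusted p = 4.77e-05), and TBL1XR1 rose from 111 to 136 CPM, a call lost without MDA-MB-231 dexamethasone 3 (adjusted p = 0.0507). The coactivator BCL9 fell from 20.2 to 14.7 CPM (log2 -0.46, adjusted p = 0.000402) and the R-spondin receptor LGR4 from 76.2 to 59.8 CPM (log2 -0.35, adjusted p = 0.00472). TCF7L2 and LGR5 were the other falls, LGR5 named after its values were seen. The TCF7L2 call ended without any of 9 libraries (0.0509 to 0.164). The AXIN2 response differed between the lines (log2 difference -0.84, adjusted p = 0.00266). In vehicle, 12 of the 24 were higher and 8 lower in HCC70, beside 39.2% of all genes higher and 40% lower. TCF7 stood at 223 CPM against 15.2 CPM in MDA-MB-231, and LEF1 had 0 counts in HCC70 and stood at 2.34 ± 0.207 CPM in MDA-MB-231. The LEF1 call within the 8 was thus fixed in advance.

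Transcriptional repressors of E-cadherin and epithelial regulators made up a list of 22, of which 19 were tested. In vehicle, 11 were higher and 7 lower in HCC70, beside 39.2% of all genes higher and 40% lower. The repressors ZEB1 and ZEB2 stood at 0.373 ± 0.0406 and 0.103 ± 0.0450 CPM in HCC70 and at 48.5 ± 5.90 and 7.86 ± 0.487 CPM in MDA-MB-231 (SD, n = 3). The epithelial regulators GRHL2 and ESRP1 stood at 115 ± 2.59 and 192 ± 6.57 CPM in HCC70 and at 0.0765 ± 0.0419 and 0.0108 ± 0.00936 CPM in MDA-MB-231. ESRP1 had almost no counts in MDA-MB-231 vehicle, so its call within the 11 was fixed in advance.

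With dexamethasone, 5 of those 19 rose and 0 fell in HCC70, beside 2.55% of all genes higher and 1.4% lower. The repressor SNAI2 rose from 5.56 ± 0.216 to 8.6 ± 0.173 CPM (log2 0.63 ± 0.072, adjusted p = 0.000133) and the epithelial factor EHF from 57.8 to 88.7 CPM (log2 0.62 ± 0.075, adjusted p = 0.000246). ZEB1 rose from 0.373 to 0.679 CPM (adjusted p = 0.00671; 0.0707 in limma voom). KLF4 and ESRP2, named after their values were seen, rose from 19.6 to 28.9 and from 124 to 166 CPM. SNAI2 and ZEB1 are known as repressors of CDH1, and EHF, KLF4 and ESRP2 are known for epithelial gene programmes. CDH1 itself did not pass in HCC70. In MDA-MB-231, 2 rose and 3 fell: SNAI2 rose from 25.6 ± 1.19 to 78.7 ± 6.63 CPM (log2 1.62 ± 0.068, adjusted p = 1.10e-09) and KLF4 from 38.7 to 57.7 CPM, while ELF3 fell from 7.47 to 1.17 CPM (log2 -2.67 ± 0.15, adjusted p = 4.93e-08), GRHL1 from 1.36 to 0.799 CPM and SNAI1 from 1.44 to 0.926 CPM. The SNAI1 call ended without MDA-MB-231 dexamethasone 1 (adjusted p = 0.0505) or dexamethasone 3 (0.0552). The SNAI2 response was larger in MDA-MB-231 (log2 difference -0.99, adjusted p = 1.93e-05).

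Enzymes that cleave cadherins or set their phosphorylation and turnover made up a list of 27, with 25 tested. In HCC70, dexamethasone changed 0 of the 25, and in MDA-MB-231 it raised 2 and lowered 3. PTPN1, a phosphatase that acts on cadherin-bound beta-catenin, rose from 170 ± 4.97 to 302 ± 4.57 CPM (log2 0.83 ± 0.052, adjusted p = 6.86e-08). The membrane protease MMP14 fell from 303 to 232 CPM (log2 -0.38 ± 0.062, adjusted p = 0.000646). The kinase SRC fell past the threshold, a call that ended without MDA-MB-231 vehicle 1, dexamethasone 1 or dexamethasone 3 (0.0790 to 0.116). With the GC and length trend removed, MMP14 was at log2 -0.21 (adjusted p = 0.00479) and SRC at -0.23, from -0.44 as reported (adjusted p = 0.00415). MMP9, named after its values were seen, fell from 11, 11 and 12 counts with vehicle to 1, 6 and 3. ADAM10, the main sheddase of E-cadherin, stood at 243 ± 25.5 and 254 ± 16.2 CPM in MDA-MB-231 vehicle and dexamethasone and did not pass.

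Few further cadherins of the same classes had reads enough for a test. Of 13 other classical and type II cadherins, 4 had enough counts to be tested. In vehicle 2 of these were higher in HCC70, CDH18 (named after its values were seen) and CDH24, beside 39.2% of all genes. CDH24, a type II cadherin, stood at 115 ± 10.9 CPM in HCC70 vehicle and 36.6 ± 9.30 in MDA-MB-231 vehicle (SD, n = 3). With dexamethasone it was the list's only call, falling in MDA-MB-231 to 22.6 CPM (log2 -0.70 ± 0.18, adjusted p = 0.0289), a call lost under 6 of 25 alternatives and without MDA-MB-231 vehicle 1, dexamethasone 1 or dexamethasone 3 (adjusted p = 0.0588, 0.113 and 0.108). The CDH24 estimate was -0.47 without vehicle 1, -0.66 without both vehicle 1 and dexamethasone 2 (adjusted p = 7.21e-05) and, with the GC and length trend removed, -0.34 (adjusted p = 0.000291).

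Of 27 atypical cadherins, the FAT, Dachsous, protocadherin and related genes, 22 were tested. In HCC70, dexamethasone raised 1 (CDH23, a call lost under 12 of 25 alternatives, also without any of 8 libraries, adjusted p from 0.0549 to 0.194) and lowered 2 (FAT4 and PCDH18, the latter named after its values were seen and at 14, 13 and 20 counts with vehicle and 4, 2 and 3 with dexamethasone). In MDA-MB-231 it raised 3 and lowered 6, beside 6.65% of all genes higher and 7.96% lower. PCDH7, a protocadherin, rose there from 6.37 ± 1.52 to 9.42 ± 1.1 CPM (log2 0.56 ± 0.14, adjusted p = 0.0158), a call lost under 4 of 25 alternatives and without MDA-MB-231 vehicle 2 (0.0658). FAT3 fell from 3.08 ± 0.549 to 1.76 ± 0.276 CPM (log2 -0.81 ± 0.21, adjusted p = 0.0176), a call lost without MDA-MB-231 vehicle 2 or dexamethasone 3 (0.0879 and 0.0829). FAT2 had 26, 31 and 28 counts with vehicle and 3, 16 and 20 with dexamethasone (log2 -1.20 ± 0.36, adjusted p = 0.0396). The FAT2 call was lost under 12 of 25 alternatives and without any of 9 libraries (0.0559 to 0.101), and without MDA-MB-231 dexamethasone 1 the estimate was -0.72. FAT4, a large cadherin of planar polarity, moved in opposite directions: it fell from 0.752 ± 0.135 to 0.377 ± 0.0675 CPM in HCC70 (log2 -1.0 ± 0.16, adjusted p = 0.00258) and rose from 56.1 ± 4.76 to 69.7 ± 2.88 CPM in MDA-MB-231 (log2 0.31 ± 0.090, adjusted p = 0.0324). The difference of these responses passed (log2 -1.31, adjusted p = 0.000453), though the MDA-MB-231 rise lost its call without HCC70 dexamethasone 2 or MDA-MB-231 vehicle 1, vehicle 2, dexamethasone 1 or dexamethasone 3 (0.0511 to 0.119). Protocadherin 1 (PCDH1), an epithelial protocadherin, fell from 17.1 to 9.76 CPM in MDA-MB-231 (log2 -0.81 ± 0.12, adjusted p = 0.000638).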

How the data were processed

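RNA-seq libraries (polyA-selected, transposase-based, not stranded, paired-end 50 bp, per the labels' protocols) were deposited by the authors as whole-number read counts per gene, not scaled between libraries. The submitters' processing notes name hg19, TopHat 1.4.1, Cufflinks 1.3.0 and bedtools; which made the counts is not given in the sources used here. Counts were analysed with edgeR 4.0.16 (R 4.3.3): TMM, filterByExpr with a minimum count of 10, a robust quasi-likelihood fit to all 12 libraries with a mean per group (8 residual degrees of freedom), and Benjamini-Hochberg adjustment over the 28141 genes tested, two-sided, threshold 0.05. Differences of responses are HCC70 minus MDA-MB-231. Alternatives used DESeq2 1.42.0 and limma 3.58.1 (voom), other scalings and filters, an offset for GC content and length, a replicate block, each line alone, and each library left out. The members, gene lists and markers were chosen with earlier results of these data known. All members are described; of the other listed genes, up to 3 rises and 3 falls per list and comparison were named by size, at a mean of at least 1 CPM, and 1 gene that this rule takes is not reported here. The tests were first run on simulated data. Exon lengths and overlaps came from a GRCh38 annotation matched by gene identifier.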

Additional observations from a re-analysis of the deposited data

How the results depend on the processing

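Over the single-member results, 684 alternative values were computed: 651 kept direction and side of the threshold, 15 uncalled HCC70 estimates changed sign and stayed uncalled, 12 lost a call, 6 gained a call and 0 called values reversed. These leave out the HCC70 responses of CDH2 and CDH11 and their differences between the lines, since both had 0 counts in HCC70 vehicle. The HCC70 count of 0 members stayed 0 under all 25 alternatives. The MDA-MB-231 count of 2 became 1, by losing CTNNB1, with library size only, with the replicate block, with each line fitted alone and with the GC and length offset plus replicate block, and ran from 1 to 2 when each library was left out. The count of 0 members whose responses differed became 1 (CTNNB1) with library size only, with the strict filter of 5 CPM in 3 libraries, with the DESeq2 Wald test and when the MDA-MB-231 libraries vehicle 1 and dexamethasone 2 were both left out, and ran from 0 to 2 when each library was left out: CDH2 was called without HCC70 dexamethasone 2, and CTNNB1 and CDH3 without MDA-MB-231 dexamethasone 2. The count for the lines in vehicle was 8, which holds CDH2 and CDH11 though these had to differ. It was 7 to 8 over the alternatives, with CDH2 left out by the strict filter and CTNNB1 lost under the GC and length offset, also with the block (adjusted p = 0.864). The cause of these moves was not tested. The sign changes concerned CDH1, CDH3, CDH4, CTNNB1 and CTNND1. For listed genes that are no members, the same alternatives were chosen after seeing the data.

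The reported fit did not pair libraries by replicate number. For same-numbered vehicle and dexamethasone libraries, deviations from the group's mean log2 CPM correlated at -0.104, 0.0428 and -0.0130 in HCC70. In MDA-MB-231 they correlated at -0.419, -0.208 and 0.187. Differently numbered MDA-MB-231 libraries ran from -0.455 (vehicle 3, dexamethasone 2) to 0.548 (vehicle 1, dexamethasone 2). With 3 libraries per group, these values cannot settle whether samples were paired. With the replicate block CTNNB1 in MDA-MB-231 had an adjusted p of 0.134 and CDH11 kept its call. Over all genes, the calls ran from 481 (replicate block) to 4828 (line alone) in HCC70, beside 1114, and from 2116 to 6452 in MDA-MB-231, beside 4110. Low counts limit CDH2, CDH4 and CDH11 in HCC70 and CDH13 in both lines.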
